A study of Schmidtea mediterranea with 4 samples.

Results

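The cells described here are the *klf4l* cells of sexual *Schmidtea mediterranea*: all barcodes with at least 2 unique molecular identifiers (UMIs, each tagging 1 captured transcript) of *klf4l*, gene SMESG000031008.1. They numbered 117 of 48216 barcodes, or 0.243% (exact binomial 95% interval 0.201 to 0.291%). Single-cell RNA sequencing had been run on 2 libraries of posterior tissue (posterior 1 and 2) and 2 of anterior tissue (anterior 1 and 2) from animals of the sexual strain. Each library pooled tissue of 15 to 20 planarians that had been kept at 18 °C and starved for 1 week, and live cells were sorted after staining with Hoechst and propidium iodide. The labels give no treatment, genotype or age and name the cells reproductive organs. The comparison group within each library was 585 barcodes in all with 0 *klf4l* UMIs, 5 for each *klf4l* cell, chosen for the nearest total UMI count and called matched barcodes below.

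Sexual planarians are hermaphrodites that carry ovaries, testes and yolk glands (vitellaria). Their germ cells arise from stem cells after hatching and lie among somatic support cells. *klf4l* encodes a Krüppel-like zinc finger transcription factor that marks the germline stem cells of the gonads and the earliest cells of the yolk lineage. *LamA*, an extracellular matrix gene, and *nrps*, a nonribosomal peptide synthetase gene, mark the somatic support cells of the reproductive organs, and a second *nrps* gene is expressed in the gut. Apart from these 4 genes, the files give SMESG numbers with no gene names, so the other genes are described by number and no role is given for them.

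Depth differed between the regions. The posterior libraries held medians of 3297.5 and 2394.5 UMIs per barcode, against 1208 and 1218 in the anterior libraries. Of all barcodes, 226 occurred in 2 libraries and 1 in 3, and 4 *klf4l* cells had a barcode that another library also held.

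*klf4l* cells were found in every library, with 31 and 48 in posterior 1 and 2, against 9 and 29 in anterior 1 and 2. Their shares were 0.258% and 0.252% of posterior barcodes, against 0.134% and 0.279% of anterior barcodes, so the regions overlapped. The mean share was 0.255% in the posterior and 0.207% in the anterior (exact two-sided permutation test, *P* = 1, n = 2 libraries each; the smallest *P* that this design allows is 0.33). When each barcode of at least 1000 UMIs was thinned to 1000 UMIs, the expected shares were 0.0932% and 0.113% in the posterior, against 0.139% and 0.240% in the anterior, and the order of the regions turned round (exact permutation test, *P* = 0.33). Thinning left out 1614 and 4147 posterior barcodes and 2577 and 4088 anterior barcodes, among them 4 *klf4l* cells of the posterior. No order of the regions is read from these shares.

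The level of *klf4l* chose the cells and is given as a description. Within the *klf4l* cells, the median was 7 UMIs and the highest value 45. Medians by library were 6 and 7.5 in the posterior, against 6 and 6 in the anterior, and the highest cells held 25 and 45, against 28 and 20. Of the 117 cells, 23 held exactly 2 UMIs, 46 held 3 to 9, and 48 (41.0%) held 10 or more. Just outside the limit lay 115 barcodes with 1 UMI. The *klf4l* cells carried 1085 of the 1200 *klf4l* UMIs of all barcodes (90.4%), so most of the transcript was in few cells.

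**Figure D1:**
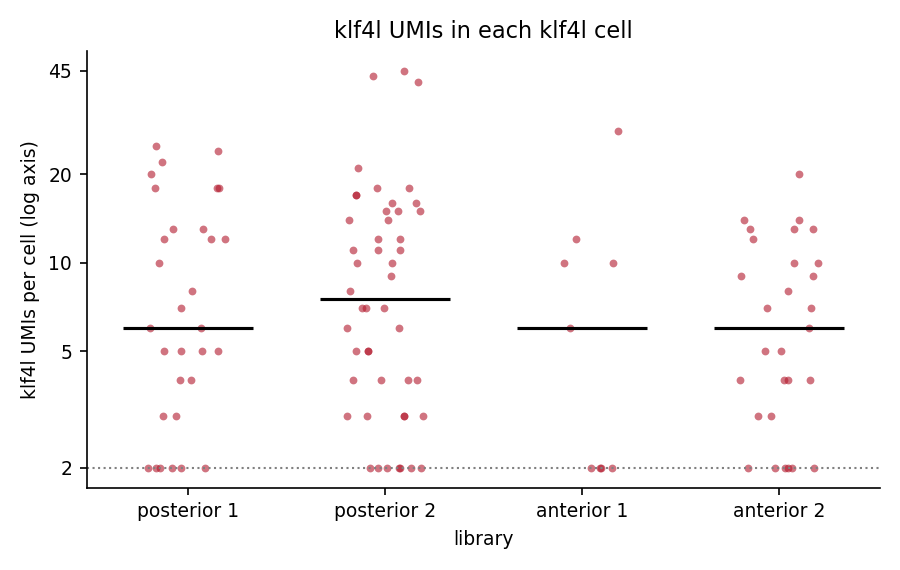
*klf4l* UMIs (log axis) in each of the 117 *klf4l* cells, by library. Points are cells, black bars are medians (6, 7.5, 6 and 6 from left to right), and the dotted line is the lower limit of 2 UMIs; every library holds cells with more than 10 UMIs.

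*klf4l* cells were deeply sequenced cells of their libraries. Median total UMIs were 8859 and 8140.5 in the posterior *klf4l* cells, against 4136 and 3988 in the anterior *klf4l* cells, and 104 of 117 lay above the median of their own library. A total above the 95th percentile of the library was found in 29 of them. More UMIs in a cell give *klf4l* more chances to reach 2 UMIs, so the matched barcodes were used below except where another group is named. Medians of the matched barcodes were 8861 and 8139.5 UMIs in the posterior and 4135 and 3991 in the anterior.

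At matched totals, *klf4l* cells held more different genes. Median genes per cell were 3376 in *klf4l* cells of posterior 1, against 3123 in its matched barcodes. In posterior 2 they were 3333.5, against 3052. In anterior 1 the *klf4l* cells held 2133 genes, against 1630, and in anterior 2 they held 2202, against 2015. The difference was 306 ± 137 genes (SD, n = 4 libraries) and had the same sign in 4 of 4 libraries (exact two-sided sign-flip permutation test, *P* = 0.13, the smallest that 4 libraries allow). It was 116 ± 74.2 genes when *klf4l* cells were required to hold at least 3 UMIs, and 105 ± 95.3 without the barcodes in the top 5% of their library's totals, both with *P* = 0.13 by the same exact test.

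The *klf4l* cells were not of a single kind. All barcodes were clustered on 3000 variable genes without *klf4l*, *nrps*, *LamA* and *nrps* (gut), which gave 53 clusters. Clusters 49, 18 and 23 held 39, 23 and 18 *klf4l* cells, together 80 of 117 (68.4%, exact binomial interval 59.1 to 76.7%), while they held 3.26% of all barcodes. These clusters were singled out because they hold most *klf4l* cells, so their share is a description. They are left without cell type names, since *klf4l* is the only germline marker among the named genes and it chose the cells. Of the 31, 48, 9 and 29 *klf4l* cells of posterior 1, posterior 2, anterior 1 and anterior 2, these clusters held 23, 36, 4 and 17. The other 37 *klf4l* cells were spread over 12 clusters with at most 11 in any of them, and 38 clusters held none.

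Cluster 49 was the smallest of the 3 and the richest in *klf4l*. It held 156 barcodes, of which 25.0% were *klf4l* cells (18.4 to 32.6%), and its *klf4l* level was 235 CPM (UMIs of the gene per 1000000 UMIs of the cells). Cluster 18 held 759 barcodes with 3.03% *klf4l* cells (1.93 to 4.51%) and 41.8 CPM, and cluster 23 held 658 barcodes with 2.74% (1.63 to 4.29%) and 33.4 CPM. Over all 53 clusters, the median share of barcodes with any *klf4l* UMI was 0.157%. The median total was 8733 UMIs in *klf4l* cells of cluster 49, against 7994.5 in its barcodes with 0 *klf4l* UMIs. It was 4766, against 6275, in cluster 18 and 9991, against 9182, in cluster 23. *klf4l* cells of the other clusters were shallower than those of the 3 clusters, with a median of 2382 UMIs. They held a median of 5 *klf4l* UMIs, against 7.5 in the 3 clusters. Several were deep for their own cluster. Their median was 1742 UMIs, against 865 in 0-UMI barcodes, in cluster 4, 11820.5, against 2190, in cluster 7, and 13445, against 1050.5, in cluster 11. In clusters 14, 27, 10 and 9 the order was the other way.

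The shares of cells in these 3 clusters by *klf4l* level are given as a description, since the clusters were picked for their cells with at least 2 UMIs and a high share at those levels follows from that choice. The share was 3.08% (2.92 to 3.23%) of 47984 barcodes with 0 *klf4l* UMIs and 14.8% (8.85 to 22.6%) of the 115 with 1 UMI. It was 47.8% (26.8 to 69.4%) of the 23 cells with 2 UMIs, 73.9% (58.9 to 85.7%) of the 46 with 3 to 9, and 72.9% (58.2 to 84.7%) of the 48 with 10 or more. Median totals of these 5 levels were 1934, 3259, 3779, 4495.5 and 8582.5 UMIs, so depth moved with the *klf4l* level, and its part in these shares was not tested apart from the matching. Of the 585 matched barcodes, which have the depth of the *klf4l* cells, 9.40% were in the 3 clusters.

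**Figure D2:**
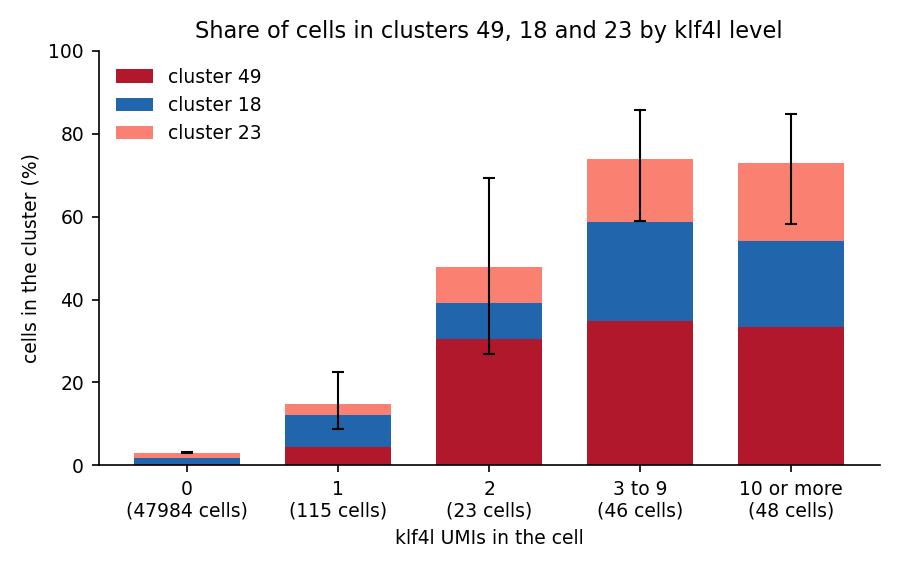
Share of cells (%) in clusters 49, 18 and 23, stacked, by the number of *klf4l* UMIs in the cell. Black lines are exact binomial 95% intervals of the 3 clusters together; the share was 3.08% at 0 UMIs and 72.9% at 10 or more, in clusters picked for holding most cells with at least 2 UMIs.

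*nrps* and *LamA*, the named markers of somatic support cells, were rare in *klf4l* cells and in matched barcodes alike. *LamA* was also common where *nrps* was rare, in 44.8% of barcodes of cluster 29, of which 0.216% held *nrps*. In cluster 44 these shares were 30.7% and 11.2%. *nrps* (SMESG000023215.1) was found in 0 of 117 *klf4l* cells, which allows a share of cells with a UMI of up to 2.56% (3 cells of 117) and sets no limit on cells that express it, and in 1 of 585 matched barcodes. Of all barcodes with 0 *klf4l* UMIs, 0.338% held it, so a count of 0 in 117 cells shows no difference. *LamA* (SMESG000056013.1) was found in 5 *klf4l* cells (4.27%, 1.40 to 9.69%), against 30 matched barcodes (5.13%, 3.49 to 7.24%). Its level was 7.96 CPM in *klf4l* cells (exact Poisson interval 3.20 to 16.4) and 10.0 CPM in matched barcodes (7.28 to 13.4), and it was below the filter of the gene test. *nrps* (gut) (SMESG000014974.1) was found in 22 *klf4l* cells (18.8%, 12.2 to 27.1%), against 94 matched barcodes (16.1%, 13.2 to 19.3%). In posterior 1 and 2 its level was 29.9 and 32.4 CPM in *klf4l* cells, against 29.1 and 25.5 CPM in matched barcodes, and in anterior 1 and 2 it was 0 and 34.6 CPM, against 40.3 and 36.0 CPM. The 2 groups overlapped, and the log2 fold change was -0.05 (SE 0.33, adjusted *P* = 0.947 by edgeR's quasi-likelihood test). For *nrps* (gut) no difference was detectable at this depth, while *nrps* and *LamA* were not tested against the matched barcodes. All barcodes with 0 *klf4l* UMIs were not matched for depth, and against them the median log2 fold change over all genes was -0.34. There 4050 of 14692 genes tested were called lower in *klf4l* cells and 1776 higher. *LamA* was among the lower ones (log2 fold change -1.32, SE 0.53, adjusted *P* = 0.0360, edgeR). The share of cells with a *LamA* UMI had the other order, 4.27% of *klf4l* cells against 3.44% of these barcodes. No trait of *klf4l* cells is read from this call.

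The gene comparison asked which transcripts other than *klf4l* were higher or lower in *klf4l* cells. UMIs were summed per library over the *klf4l* cells and over the matched barcodes, and the 8 sums entered a model with a term for each library. Among 6315 genes tested, 324 were higher (5.13%) and 765 were lower (12.1%) in *klf4l* cells at an adjusted *P* under 0.05 (edgeR's quasi-likelihood test, Benjamini-Hochberg). With DESeq2, 83 were higher and 501 lower, so the share of higher genes among those called moved to 14.2%, against 29.8% in edgeR. Without posterior 1, edgeR called 605 genes, and without the barcodes in the top 5% of totals 702. The matched sums held 5 barcodes for each *klf4l* cell, so a gene could pass the filter on low counts through the matched barcodes alone, and the sizes of higher and lower genes are not set against each other. Of the 324 higher genes, 58 had a log2 fold change of at least 1 and 21 of at least 2, with a median of 0.68. Of the 765 lower genes, 559 had a log2 fold change of -1 or less and 313 of -2 or less, with a median of -1.54, while the median over all genes tested was 0.01. All 4 libraries had the same direction for 300 of the higher and 637 of the lower genes. Among all genes tested, 25.7% were higher and 14.3% lower in *klf4l* cells of all 4 libraries. *klf4l* cells held no UMI at all of 24 of the lower genes.

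**Figure D3:**
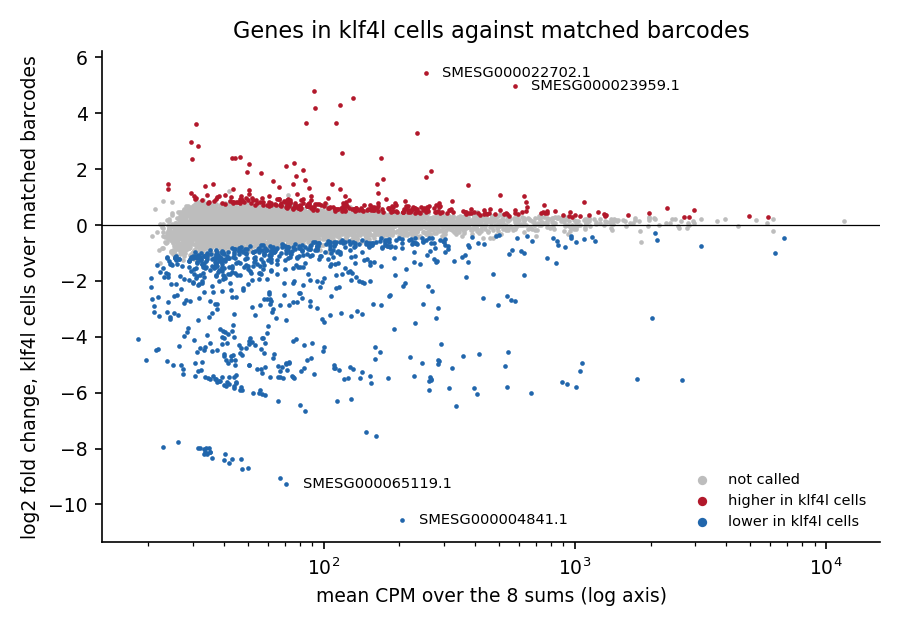
Log2 fold change of *klf4l* cells over matched barcodes against the mean CPM of the 8 sums (log axis), for 6315 genes. Red and blue points are the 324 higher and 765 lower genes and grey points are not called; the 26 genes under -7 have at most 1 UMI in *klf4l* cells, so that their fitted values are no measure of size.

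The leading higher genes were SMESG000022702.1 and SMESG000023959.1, those with the largest log2 fold change among called genes that had the same direction in 4 of 4 libraries and at least 10 UMIs in *klf4l* cells of each. SMESG000022702.1 was at 714 and 329 CPM in *klf4l* cells of posterior 1 and 2, against 17.2 and 9.73 CPM in their matched barcodes. In anterior 1 and 2 it was at 491 and 471 CPM, against 0 and 1.38 CPM. The groups did not overlap, and the lowest *klf4l* sum lay far above the highest matched sum. Its log2 fold change was 5.44 (SE 0.24, adjusted *P* = 4.34e-12, edgeR).

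SMESG000023959.1 was at 830 and 1842 CPM in *klf4l* cells of posterior 1 and 2, against 8.22 and 67.2 CPM in matched barcodes. In anterior 1 and 2 it was at 779 and 1018 CPM, against 17.3 and 41.5 CPM. These groups did not overlap either. Its log2 fold change was 4.98 (SE 0.21, adjusted *P* = 1.58e-12, edgeR).

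The leading lower genes were SMESG000004841.1 and SMESG000065119.1, by the same rule with the UMI minimum applied to the matched barcodes. No *klf4l* cell held a UMI of either gene. SMESG000004841.1 was at 0 CPM in *klf4l* cells of all 4 libraries, against 258, 193, 743 and 443 CPM in matched barcodes of posterior 1, posterior 2, anterior 1 and anterior 2. Against a floor of 3 UMIs over all *klf4l* cells (3.42 CPM), it was at least 80.6-fold lower in *klf4l* cells than in matched barcodes (275 CPM). SMESG000065119.1 was at 0 CPM in all *klf4l* sums, against 108, 82.5, 173 and 205 CPM in the same order of matched sums, and it was at least 33.3-fold lower against the same floor. Few barcodes carried either gene. Of all barcodes with 0 *klf4l* UMIs, 6.11% held SMESG000004841.1, with up to 301 UMIs in a cell, and 4.03% held SMESG000065119.1, with up to 132. The fold limits are thus limits on summed UMIs, in which few cells can weigh heavily. Both genes were also scarce in the barcodes of clusters 49, 18 and 23 that had 0 *klf4l* UMIs, where SMESG000004841.1 was at 3.67, 5.91 and 3.47 CPM, against 203 CPM in the 0-UMI barcodes of the other clusters.

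**Figure D4:**
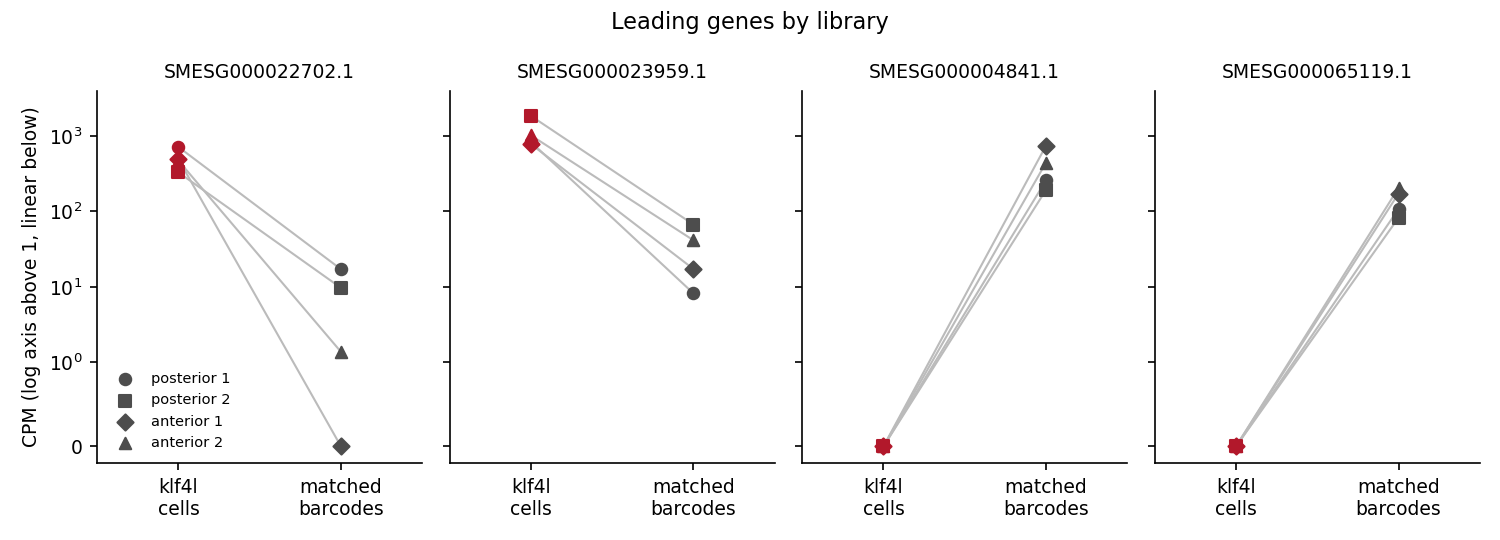
CPM of the 2 leading higher and 2 leading lower genes in *klf4l* cells (left) and matched barcodes (right) of each library, with a line joining the sums of a library. The axis is logarithmic above 1 CPM and linear below; SMESG000022702.1 and SMESG000023959.1 lie higher in *klf4l* cells of all 4 libraries, and SMESG000004841.1 and SMESG000065119.1 are at 0 there.

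The leading higher genes differed in which *klf4l* cells held them. SMESG000022702.1 was found in 54 of 117 *klf4l* cells (46.2%, 36.9 to 55.6%), with at most 26 UMIs in a cell. It was in 19 of the 23 *klf4l* cells of cluster 18 (82.6%), 10 of 18 in cluster 23 (55.6%), 16 of 37 outside the 3 clusters (43.2%) and 9 of 39 in cluster 49 (23.1%, 11.1 to 39.3%). Among barcodes with 0 *klf4l* UMIs it was in 2 of 727 of cluster 18 (0.275%), 6 of 637 of cluster 23 (0.942%), 1 of 112 of cluster 49 (0.893%) and 741 of 46508 elsewhere (1.59%). In each of these 4 groups the share was higher in *klf4l* cells. Both leading genes were picked for their excess in the sum of these same cells. Their shares by cluster and by *klf4l* level, here and below, are therefore a description. The files give no gene positions, so whether the gene shares reads with *klf4l* was not tested. The 117 *klf4l* cells held 418 of its 2256 UMIs (18.5%). Of all clusters, cluster 9 had its highest level, at 76.0 CPM, and held 39.6% of its UMIs.

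SMESG000023959.1 was found in 73 *klf4l* cells (62.4%, 53.0 to 71.2%) and followed the cluster more closely. It was in all 39 *klf4l* cells of cluster 49, and also in 108 of the 112 barcodes of cluster 49 with 0 *klf4l* UMIs (96.4%, 91.1 to 99.0%). Its level there was 2173 CPM in *klf4l* cells, against 1479 CPM in the 0-UMI barcodes. In cluster 23 it was in 15 of 18 *klf4l* cells (83.3%), against 70 of 637 barcodes with 0 *klf4l* UMIs (11.0%). In cluster 18 it was in 5 of 23 (21.7%), against 19 of 727 (2.61%). Outside the 3 clusters it was in 14 of 37 *klf4l* cells (37.8%), against 2079 of 46508 barcodes (4.47%).

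**Figure D5:**
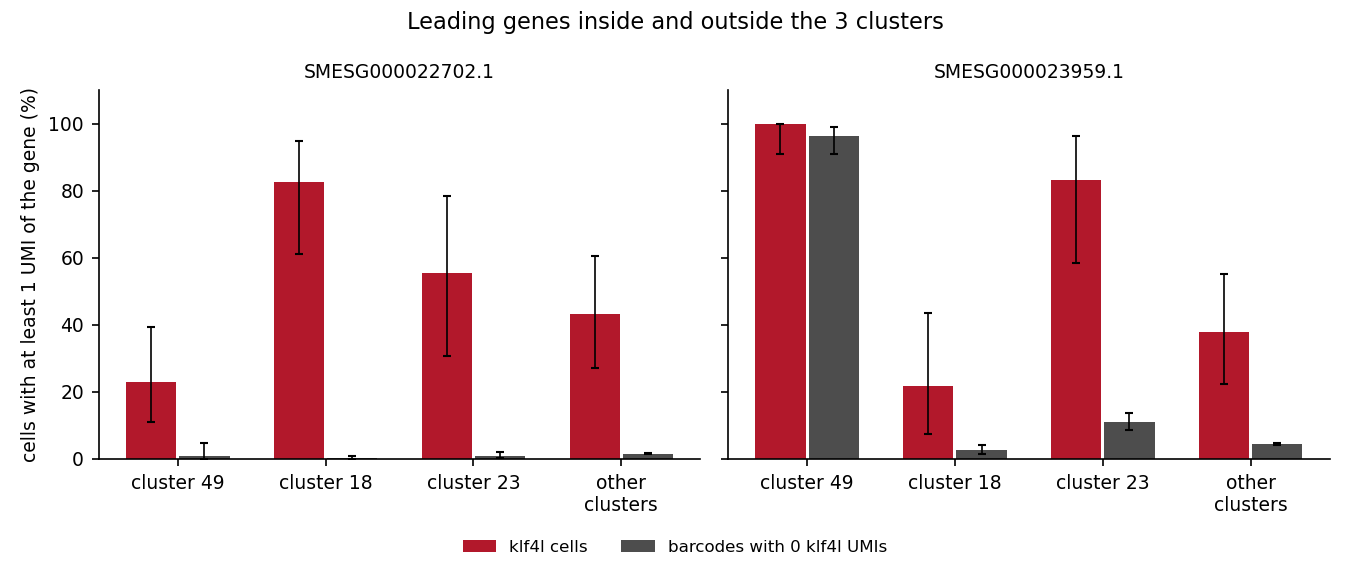
Share of cells (%) with at least 1 UMI of SMESG000022702.1 (left) and SMESG000023959.1 (right) in *klf4l* cells (red) and in barcodes with 0 *klf4l* UMIs (grey) of clusters 49, 18 and 23 and of the other clusters. Lines are exact binomial 95% intervals; in cluster 49 SMESG000023959.1 was in 100% of *klf4l* cells and 96.4% of the 0-UMI barcodes, whereas SMESG000022702.1 was in 23.1% and 0.893%.

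Both genes were found together in 30 *klf4l* cells (25.6%), SMESG000022702.1 alone in 24, SMESG000023959.1 alone in 43 and neither in 20 (17.1%). Of the 37 *klf4l* cells outside the 3 clusters, 15 held neither (40.5%), against 5 of the 80 inside them (6.25%). These outside cells were also the shallower ones by median. By *klf4l* level, SMESG000022702.1 was in 1.56% of barcodes with 0 *klf4l* UMIs, 4.35% of those with 1, 17.4% of cells with 2, 39.1% of cells with 3 to 9 and 66.7% of cells with 10 or more. For SMESG000023959.1 these shares were 4.74%, 18.3%, 43.5%, 60.9% and 72.9%. CPM levels, which do not grow with the total alone, were 11.7, 14.3, 218, 321 and 659 CPM for SMESG000022702.1. They were 34.8, 251, 1089, 1630 and 1252 CPM for SMESG000023959.1, which was thus no higher at 10 or more *klf4l* UMIs than at 3 to 9.

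Fewer genes were called within clusters. When matched barcodes were drawn from the same cluster as each *klf4l* cell, 55 genes were higher (0.923%) and 88 lower (1.48%) among 5958 tested, a setting chosen after seeing the data. Of these, 47 higher and 75 lower genes had the same call with matching on UMIs alone, which is 85.5% and 85.2% of the calls within clusters and 14.5% and 9.80% of the calls with matching on UMIs alone. SMESG000022702.1 remained called, with a log2 fold change of 7.46 (SE 0.34, adjusted *P* = 1.74e-12, edgeR), and so did SMESG000023959.1, at 1.34 (SE 0.22, adjusted *P* = 6.81e-04). Both were picked on the same *klf4l* cells, so these calls are no separate evidence for them. The matched barcodes of this setting had fewer UMIs than the *klf4l* cells, with medians of 6182 and 6760.5, against 8859 and 8140.5, in the posterior and 3670 and 3794, against 4136 and 3988, in the anterior.

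Calls were shared in part between *klf4l* cells of different clusters. Of the 324 higher genes, 107 were at least 2-fold above the matched barcodes in *klf4l* cells of cluster 49, 86 in those of cluster 18, 106 in those of cluster 23 and 70 in those of the other clusters, and 24 (7.41%) in each of the 4. Of the 765 lower genes, 582, 511, 556 and 354 were at most 0.5 of the matched level, and 284 (37.1%) in each of the 4. The 4 groups, the last of which pools cells of 12 clusters, make up the sums that gave the calls, so these counts are a description. Over all 6315 genes, 2.28%, 5.64%, 3.48% and 3.78% were at least 2-fold above and 11.4%, 14.3%, 13.3% and 8.79% at most 0.5, and 0.380% and 4.50% were so in each of the 4. Outside the 3 clusters, where 37 cells gave 1540 genes to test, 6 genes were higher and 49 lower, and SMESG000022702.1 was among the higher ones (log2 fold change 6.64, SE 0.47, adjusted *P* = 3.60e-05, edgeR). These 37 cells are part of the sum on which that gene was picked.

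The 115 barcodes with 1 *klf4l* UMI, which the limit left out, were compared with their own matched barcodes, none of which were matches of *klf4l* cells. Among 4598 genes, 1 was higher (0.0217%) and 61 were lower (1.33%). The higher gene was SMESG000023959.1, named here after its value was seen, with a log2 fold change of 2.74 (SE 0.36, adjusted *P* = 5.34e-04, edgeR). It was at 25.8 and 248 CPM in the 1-UMI cells of posterior 1 and 2, against 17.2 and 46.2 CPM in their matched barcodes, and at 430 and 629 CPM in anterior 1 and 2, against 10.7 and 37.8 CPM. The difference was small in posterior 1, where the 1-UMI cells held 3 of its UMIs, and without posterior 2 the gene did not pass the filter, and none of the 2189 genes tested was called higher. SMESG000022702.1 was found in 5 of the 115 cells, with 8 UMIs, and did not pass the filter.

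The leading lower genes of the 1-UMI cells were SMESG000025909.1 and SMESG000003997.1. SMESG000025909.1 was at 0 and 5.56 CPM in 1-UMI cells of posterior 1 and 2, against 270 and 56.2 CPM in matched barcodes, and at 0 in anterior 1 and 2, against 268 and 173 CPM (log2 fold change -5.06, SE 0.56, adjusted *P* = 1.59e-04, edgeR). SMESG000003997.1 was at 17.2 and 8.35 CPM in posterior 1 and 2, against 308 and 55.1 CPM, and at 0 in anterior 1 and 2, against 193 and 400 CPM (log2 fold change -4.12, SE 0.46, adjusted *P* = 1.59e-04, edgeR). Groups did not overlap for either gene. Both were also lower in *klf4l* cells, with log2 fold changes of -5.49 (SE 0.38) and -4.93 (SE 0.25). The 1-UMI cells held 2 UMIs of SMESG000025909.1 and 5 of SMESG000003997.1, and the *klf4l* cells held 4 and 10. The fitted values thus rest on few UMIs and are no measure of size. Of all barcodes with 0 *klf4l* UMIs, 5.55% and 7.29% held these genes, with up to 239 and 399 UMIs in a cell, so few cells can weigh heavily.

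Most called genes had the same direction in the 1-UMI cells, at a smaller size. Of the 61 genes lower in 1-UMI cells, 58 were tested in *klf4l* cells, and all 58 were also lower there (7.58% of the 765). The rest of the 61 were not tested there. Of all 4538 genes tested in both, 503 were lower in *klf4l* cells. Of the 324 genes higher in *klf4l* cells, 249 were tested in the 1-UMI cells, and 191 of these (76.7%) had a positive log2 fold change, with a median of 0.19. Of the 765 lower genes, 503 were tested there, 54 (10.7%) were positive and the median was -0.42. Among all 4538 genes tested in both, 48.1% were positive and the median was -0.02.

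Between regions, few genes differed in *klf4l* cells. Comparing posterior with anterior *klf4l* cells over 4 sums, 3 of 4531 genes were called (0.0662%), 1 higher and 2 lower in the posterior (edgeR), with 192 at an unadjusted *P* under 0.05. No gene was called with DESeq2 (24 at an unadjusted *P* under 0.05), nor with edgeR without posterior 2 (103 at an unadjusted *P* under 0.05), where the lone posterior library was assumed to vary like the anterior ones. SMESG000022702.1 had a log2 fold change of 0.14 (SE 0.31, adjusted *P* = 0.9998) and SMESG000023959.1 one of 0.57 (SE 0.28, adjusted *P* = 0.9998). The value of SMESG000023959.1 was 1.03 without posterior 1 (SE 0.21, adjusted *P* = 5.12e-04, edgeR) and -0.12 without posterior 2 (SE 0.22, adjusted *P* = 0.993), so its call depended on the library left out.

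The gene higher in the posterior was SMESG000000719.1, at 819 and 742 CPM in posterior 1 and 2, against 0 and 138 CPM in anterior 1 and 2 (log2 fold change 2.88, SE 0.36, adjusted *P* = 4.51e-04, edgeR). The log2 fold change was 3.36 with DESeq2, 2.97 without posterior 2 and 2.53 without anterior 1. Without anterior 2 the remaining anterior library had 0 UMIs of it, and the fitted 10.6 is no measure of size. The gene was in 17 of 31 and 34 of 48 posterior *klf4l* cells, against 0 of 9 and 7 of 29 anterior ones. In matched barcodes it was at 10.5 and 91.7 CPM in the posterior, against 0 and 76.1 CPM in the anterior, where the regions overlapped. Most of its UMIs in *klf4l* cells, 432 of 559, lay in cluster 49, which held 7 and 23 *klf4l* cells of the posterior, against 2 and 7 of the anterior. Within cluster 49 its level was 1796 and 980 CPM in posterior *klf4l* cells, against 0 and 332 CPM in anterior ones. Barcodes of cluster 49 with 0 *klf4l* UMIs had 2023 and 4472 CPM in the posterior, against 2654 and 7881 CPM in the anterior, so the order of the *klf4l* cells was not seen there. The test of the difference between *klf4l* cells and matched barcodes across regions gave 3.20 on the log2 scale (SE 0.78, adjusted *P* = 0.385) and did not pass.

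The genes lower in the posterior were SMESG000058876.1 and SMESG000070953.1. SMESG000058876.1 was at 0 and 39.4 CPM in posterior 1 and 2, against 317 and 727 CPM in anterior 1 and 2 (log2 fold change -4.58, SE 0.52, adjusted *P* = 2.16e-04, edgeR). The log2 fold change was -4.68 with DESeq2 and -3.62 without anterior 2. Without posterior 2 the remaining posterior library had 0 UMIs of it, and the fitted -9.45 is no measure of size. Few cells carried the gene, 0 of 31 and 3 of 48 in the posterior, against 1 of 9 and 5 of 29 in the anterior, and 1 cell held 42 of its 133 UMIs. SMESG000070953.1, named after its values were seen because anterior 1 held only 4 of its UMIs, was at 15.0 and 9.28 CPM in the posterior, against 115 and 166 CPM in the anterior (log2 fold change -3.63, SE 0.54, adjusted *P* = 3.73e-03), with -3.60 in DESeq2 and -3.22 without posterior 2. In matched barcodes it was at 7.47 and 19.5 CPM in the posterior, against 69.1 and 81.7 CPM in the anterior, so the same order stood in barcodes without *klf4l*.

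A difference between *klf4l* cells and matched barcodes that itself differed between regions was called for 3 of 6315 genes (0.0475%, edgeR interaction test). SMESG000058876.1 was among them, at -4.46 (posterior minus anterior, log2 scale, SE 0.46, adjusted *P* = 5.92e-06). Its value rests on few cells, since 9 of 117 *klf4l* cells held the gene and 1 cell held all 11 UMIs of anterior 1. For the other 2, SMESG000021478.1 and SMESG000008785.1, a single library carried the values. In *klf4l* cells, SMESG000021478.1 was at 0 and 199 CPM in posterior 1 and 2, against 0 CPM in both anterior libraries, and 1 cell held 83 of the 86 UMIs.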

How the data were processed

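The authors processed 10x Genomics 3′ libraries (v3.1 chemistry) with Cell Ranger (5.0.0 per the file headers), which aligned the reads to the genome of the sexual strain, and deposited UMI counts per gene and barcode of each library, neither normalized nor pooled. All barcodes were used, each with at least 500 UMIs. Libraries held 11513838 to 72094246 UMIs over 22192 listed genes. Matched barcodes were drawn without replacement within the library. Their totals differed from those of their cells by at most 11.3%, and 4 of 585 differed by over 5%. Doublets were not removed.

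UMI sums were compared by edgeR 4.0.16 under R 4.3.3 (quasi-likelihood test, TMM scaling, filterByExpr, Benjamini-Hochberg adjustment over all genes tested, threshold 0.05), without *klf4l*, with the library as a block because both sums come from the same suspension. The SE of a log2 fold change is its size over the square root of edgeR's F, and *P* draws on a spread pooled over genes. Nothing says that the libraries came from separate animals or days, so *P* values speak for these libraries only. With the library as a block, they rest on how the difference between cells and their matched barcodes varied from library to library. Posterior and anterior *klf4l* cells were compared without this block, and there *P* values rest on the spread between libraries of a region. DESeq2 1.42.0 and limma 3.58.1 (log2(CPM + 10)) served as alternatives. Clustering used leidenalg 0.10.2 and igraph 0.11.9 at resolution 1, with 50 principal components and 20 neighbors, and exact tests used scipy 1.17.1. Intervals and limits cover counting error only.

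Besides *klf4l*, *nrps*, *LamA* and *nrps* (gut), the text names, per comparison, the 2 genes called higher and the 2 called lower whose log2 fold change was furthest from 0, if they had the same direction in every library (between regions, no overlap) and at least 10 UMIs in each library of the higher group. Where 5 or fewer genes were called, others are named and said to be so. The cells and the named genes were chosen with earlier results of these data known. No genome, annotation or sequence was used here.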

Additional observations from a re-analysis of the deposited data

Results flagged for a closer look

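For 3 genes the difference between *klf4l* cells and matched barcodes differed between regions, out of 6315 tested (0.0475%, edgeR's quasi-likelihood test of the interaction, Benjamini-Hochberg). All 3 were chosen after their values were seen. SMESG000058876.1 differed by -4.46 (posterior minus anterior, log2 scale, SE 0.46, adjusted *P* = 5.92e-06). It was at 0 and 39.4 CPM in posterior *klf4l* cells, against 126 and 197 CPM in their matched barcodes, and at 317 and 727 CPM in anterior *klf4l* cells, against 92.2 and 220 CPM. Only 9 of 117 *klf4l* cells held it, and 1 cell held 42 of its 133 UMIs. SMESG000021478.1 differed by 10.1 (SE 1.90, adjusted *P* = 0.0430), and SMESG000008785.1 by 6.54 (SE 1.14, adjusted *P* = 0.0192). No interaction was called with DESeq2.

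A single library stood apart from the other 3 for 3 genes, by a gap test over 4 libraries. Normally distributed values meet its limit in about 1 of 20 groups. Where 3 libraries are at 0, any other value meets it, so these flags are a description. SMESG000021478.1 was at 199 CPM in *klf4l* cells of posterior 2 and at 0 in those of the other libraries, and 1 cell held 83 of its 86 UMIs there (96.5%). SMESG000008785.1 was at 15784 CPM in the matched barcodes of anterior 1, against 18.0 to 192 CPM in those of the other libraries, while *klf4l* cells had 15.0 to 83.5 CPM. The 2 interactions of these genes therefore rest on 1 cell and on the matched barcodes of 1 library. SMESG000014974.1, *nrps* (gut), was at 0 CPM in the 9 *klf4l* cells of anterior 1, against 29.9 to 34.6 CPM in the other libraries; with 9 cells, a count of 0 allows a share of cells with a UMI of up to 33.3% (3 cells of 9).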

How the results depend on the processing

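The direction and call of SMESG000022702.1, SMESG000023959.1, SMESG000004841.1 and SMESG000065119.1 in *klf4l* cells were kept under each alternative in which they were tested (18, 17, 16 and 14 settings). The genes were picked on the same sums for size and shared direction, so this follows in part from the choice. SMESG000004841.1 and SMESG000065119.1 were not tested with matching within the cluster or without the top 5% of totals. SMESG000065119.1 was also not tested inside or outside the 3 clusters, nor SMESG000023959.1 outside them. Log2 fold changes were 4.30 to 7.46 for SMESG000022702.1 and 1.34 to 6.67 for SMESG000023959.1. The number of genes called moved, by 1.5 times or more from 1089, to 347 with 1 matched barcode per cell, 1907 with 20, 5826 with all barcodes of 0 *klf4l* UMIs, 704 with at least 3 *klf4l* UMIs, 702 without the top 5% of totals, 584 with DESeq2, 2708 without a filter (269 higher, 2439 lower), 590 with each barcode weighted equally in limma, 143 with matching within the cluster, and 55 outside the 3 clusters. It was 633 with no replicate block. Leaving out each library in turn gave 605 (without posterior 1) to 1516 calls, and 40 (without posterior 1) to 60 for the 1-UMI cells.

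Between regions, the 3 calls became 0 with DESeq2, 17 without a filter, 1 in *klf4l* cells of the 3 clusters and 0 in matched barcodes (414 at an unadjusted *P* under 0.05). With the replicate block there were 4. Leaving out each library gave 0 (without posterior 2) to 22 calls, with 14 without anterior 1, 9 without anterior 2 and 22 without posterior 1; each leaves 1 library in a region, assumed to vary like the others, so these counts say nothing of stability. Same-numbered libraries deviated together weakly (correlation 0.07 over 4531 genes). The 3 interactions became 1 with library sizes, 0 with DESeq2 and 21 without a filter. The regional difference in the share of *klf4l* cells, 0.0481 percentage points, turned to -0.0864 after thinning. At resolution 0.5, 77.8% of *klf4l* cells were in the 3 leading clusters. The log2 fold change of SMESG000014974.1 (-0.05) turned to 0.0248 with at least 3 *klf4l* UMIs, 0.0088 with library sizes and 0.0177 in the 3 clusters, and lay between -0.0584 and 0.0887 (without anterior 1) with each library left out. Except where the genes or cells tested changed by construction, the cause was not tested. The 9 *klf4l* cells of anterior 1, with 34727 UMIs, set the limit for low genes.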
